A study of Mus musculus with 36 samples.

Results

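Ventricular myocardium taken 7 days after a sham operation was compared with ventricular myocardium taken 1 day after it. The members are the 4 whole-ventricle libraries whose labels name sham surgery, 2 from day 1 and 2 from day 7, of 36 libraries in the series. Of the 36128 gene models in the deposited table, the 12479 with at least 1 FPKM in 2 or more of these 4 libraries were tested. FPKM is fragments per kilobase of transcript, scaled to the mapped fragments of the library, a level per length of transcript. Changes are given as day 7 minus day 1 on the scale log2(FPKM + 1), which understates the change of genes with low FPKM.

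The series profiled RNA in mouse heart tissue and isolated cardiomyocytes across neonatal growth, surgery and culture. The groups shown or compared here are primary ventricle from mice of the CD-1 background, with 2 libraries in each group. They are sham at day 1, sham at day 7, resection at day 1 and day 7, and unoperated ventricle at postnatal day 0 (P0), day 4 (P4) and day 7 (P7). Adult ventricle libraries also entered the fit and so the estimate of the spread. Isolated P0 cardiomyocytes (3 libraries) gave a readout at the end. Day 7 hearts differ from day 1 hearts in age as well as in time since surgery, and the 2 cannot be told apart within the sham libraries. The labels used here do not give the age at surgery, the agents given with it or the number of hearts in a library. Nor do they say whether the 2 libraries of a group are of different animals. Replicate 2 of each sham day had Y-linked RNA and replicate 1 almost none. Ddx3y was at 11.4 against 0.051 FPKM at day 1 and at 12.6 against 0.019 FPKM at day 7. The 2 sham libraries of a day therefore do not come from the same set of hearts. In groups without such a contrast, part of the spread that a p-value is measured against may be technical.

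In the newborn mouse the ventricle changes within days from a fetal to a postnatal programme: cardiomyocytes exchange fetal for adult sarcomere proteins, build up mitochondria and leave the cell cycle, while fibroblasts and vessels expand. A sham operation is surgery without removal of ventricle. Surgery is known to raise acute-phase proteins, chemokines and stress-hormone target genes, and immune cells are drawn to injured tissue.

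Some facts about the libraries bear on every result. The label for cell type reads cardiomyocytes, but markers of other cells were present beside those of muscle. The cardiomyocyte gene Myh6 was at 1645 to 2704 FPKM, the collagen gene Col3a1 at 180 to 411 FPKM and the endothelial receptor gene Kdr at 36.4 to 63.5 FPKM in the 4 sham libraries. The replicates of each day correlated at 0.983 (Pearson r across the genes tested, log scale), and day 7 with day 1 libraries at 0.954 to 0.961. Replicate 1 of both days had Xist and almost no RNA from the Y chromosome, while replicate 2 of both days had Xist together with Y-linked RNA, so the 2 sham days were alike in sex-linked RNA. The groups set beside them were not: both P0 libraries had Y-linked RNA (Ddx3y at 6.19 and 16.7 FPKM) and both P7 libraries had almost none (0.078 and 0.21 FPKM), and replicate 2 of resection day 7 had almost no Xist (0.11 FPKM). The part of this in the differences from those groups was not tested. The 22 mitochondrial tRNA models sum to 0 FPKM in all 8 operated libraries and to between 498 and 1429 FPKM in the 6 unoperated libraries from P0 to P7. The labels name more than 1 way of making libraries and more than 1 sequencer without saying which library had which, so levels of sham and unoperated libraries are not compared directly here; each change is taken within the operated or within the unoperated libraries.

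A further fact concerns the labels. At day 1, both libraries labelled sham were above both libraries labelled resection for all 19 tested genes of an acute-phase and injury list, against a background of 41.8% of all genes tested. Of the 19, 7 passed the filter through the day 1 sham libraries alone, which favours sham levels high at day 1 and low at day 7. The other 12 were also above at day 1, and the background was not restricted to genes of that kind. No value in the table shows which operation a heart received, so the libraries are called by their labels. At day 7 both sham libraries were below both resection libraries for 9 of these 19 genes, against a background of 35.6%.

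Between day 1 and day 7 after sham surgery, 627 genes rose (5.02% of genes tested) and 1733 fell (13.9%), at an adjusted p under 0.05 (limma, Benjamini-Hochberg over the 12479 genes, 2 libraries against 2). The largest decreases were those of Arg1 and of Saa3, Spp1 and Serpina3n, of which the latter 3 stand on a list of acute-phase and injury genes, and the largest increases those of Ankrd23, Alpl, C1qtnf9 and Tuba8. A change of at least 2-fold on this scale was found for 174 genes that rose (1.39%) and 378 that fell (3.03%). Both day 7 libraries were above both day 1 libraries for 16.5% of genes tested and below both for 46.3%. Counts of called list members below are to be read against the shares of 5.02% that rose and 13.9% that fell. The median over all genes tested was -0.17, so the middle gene was lower at day 7 in the deposited values. Scaling the libraries by the median of ratios moved that median to -0.04 and gave 982 higher and 956 lower genes, and quantile normalization moved it to -0.01 and gave 1119 higher and 865 lower genes. The share of calls that were higher was therefore 26.6% as deposited, 50.7% and 56.4%, and small changes should be read against the median of -0.17. The number called was 1508 when the 4 sham libraries were fitted alone, and 1573, 1142, 1160 and 1299 without replicate 1 of day 1, replicate 2 of day 1, replicate 1 of day 7 and replicate 2 of day 7.

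**Figure D1:**
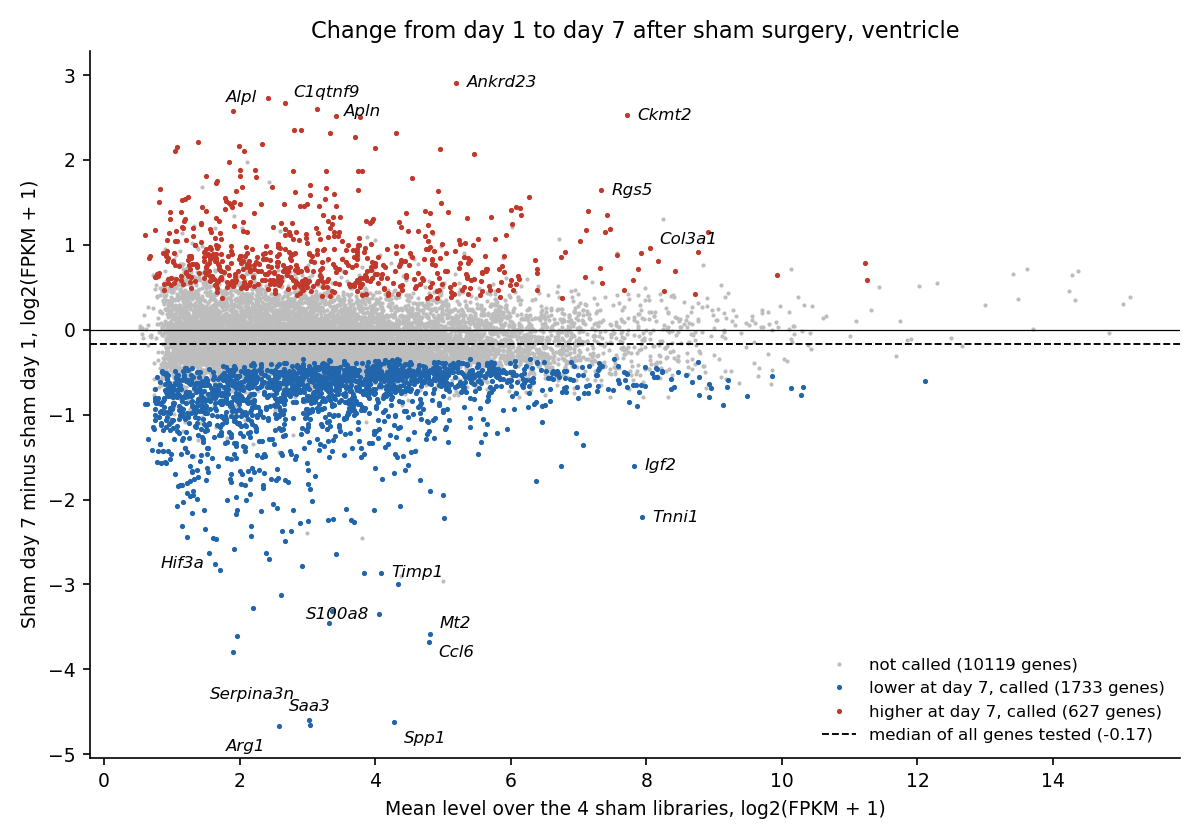
Change from sham day 1 to sham day 7 (vertical axis, log2(FPKM + 1)) against the mean level over the 4 sham libraries (horizontal axis, log2(FPKM + 1)), 1 point a gene; red and blue points are the 627 and 1733 called genes and the dashed line is the median of all genes, -0.17. The decreases reach -4.66 (Arg1) and the increases 2.91 (Ankrd23).

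The steepest decreases were those of Arg1 and of 3 genes of the acute-phase and injury list. Arg1, the arginase of wound macrophages (ENSMUSG00000019987, chromosome 10, 24635013 to 24647276 in mm9), had 21.0 and 40.0 FPKM at day 1 and 0.201 and 0.171 FPKM at day 7. Spp1, which encodes the secreted matrix protein and cytokine osteopontin (ENSMUSG00000029304, chromosome 5, 104864136 to 104870069), had 89.8 and 101 FPKM and then 5.47 and 1.38 FPKM. Saa3, an acute-phase serum amyloid gene (ENSMUSG00000040026, chromosome 7, 53967367 to 53971046), had 38.7 and 41.4 FPKM and then 0.402 and 0.892 FPKM. In these 3 genes both day 1 libraries were far above both day 7 libraries. Arg1 fell by 4.66 (SE 0.22, adjusted p = 1.4e-07), Saa3 fell by 4.65 (SE 0.22, adjusted p = 1.4e-07) and Spp1 fell by 4.61 (SE 0.33, adjusted p = 3.4e-06). Serpina3n, a secreted protease inhibitor of the acute phase, had 33.9 and 44.2 FPKM and then 0.605 and 0.691 FPKM, and fell by 4.59 (SE 0.24, adjusted p = 3.2e-07). Arg1, Saa3 and Serpina3n passed the filter through day 1 alone and could differ in 1 direction.

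Of 23 genes on the acute-phase and injury list, 22 were found in the table and 19 passed the filter. None rose and 17 fell, with a median of -2.17 beside -0.17 for all genes. Of the 19, 7 passed the filter through the day 1 libraries alone and could differ in 1 direction; of the other 12, 11 fell, against 12.7% lower among the 11995 genes of that kind. Timp1, the tissue inhibitor of metalloproteinases, had 43.8 and 46.0 FPKM at day 1 and 5.90 and 4.80 FPKM at day 7 (-2.86, SE 0.22, adjusted p = 6e-06). Lgals3, a lectin made by macrophages, had 24.2 and 42.5 FPKM and then 2.50 and 1.59 FPKM (-3.46, SE 0.30, adjusted p = 1.6e-05). Hmox1, haem oxygenase, had 15.7 and 29.2 FPKM and then 3.73 and 3.89 FPKM (-2.22, SE 0.27, adjusted p = 0.00018). The haptoglobin gene Hp (-2.17) and Socs3 (-1.75), the feedback inhibitor of interleukin-6 signalling, also fell; both were named after their values were seen. Il1b (-0.80) and the matrix gene Tnc (-0.73) did not pass the test. With 1 of the 4 sham libraries left out, 14 to 18 of the 19 were called lower.

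Promoters of 2 of the steepest decreases are shown because both hold the letters of a TATA box close to the start of the gene. Each is the RefSeq window of GRCm38.p6 from 250 bases before to 50 bases after the annotated start, 5′ to 3′ on the gene's strand, with TATAAA in capitals: S100a8 is chr3:90668821-90669120 on the plus strand and Sprr1a is chr3:92485832-92486131 on the minus strand.
S100a8: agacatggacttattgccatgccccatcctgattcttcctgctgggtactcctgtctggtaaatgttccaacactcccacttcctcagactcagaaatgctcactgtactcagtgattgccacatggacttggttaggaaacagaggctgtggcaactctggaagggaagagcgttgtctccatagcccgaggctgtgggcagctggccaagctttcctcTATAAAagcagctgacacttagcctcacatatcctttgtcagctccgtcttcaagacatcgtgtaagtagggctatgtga
Sprr1a: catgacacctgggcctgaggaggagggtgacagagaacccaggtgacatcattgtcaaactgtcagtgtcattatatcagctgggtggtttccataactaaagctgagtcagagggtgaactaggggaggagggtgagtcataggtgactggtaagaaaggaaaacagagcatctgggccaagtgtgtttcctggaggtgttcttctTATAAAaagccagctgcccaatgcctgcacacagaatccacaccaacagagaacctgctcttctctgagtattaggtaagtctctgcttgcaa
The letters begin 30 bases before the start in S100a8 and 43 bases before it in Sprr1a. TATAAA was found on either strand in 5 of the 14 windows of the 15 genes with the largest decreases, in 0 of 12 windows of the 15 largest increases, in 7.12% of the 8049 windows of genes tested and in 14.2% of all 27025 windows. Over larger groups the share differed little between directions: it was 13.8% for genes that rose at least 2-fold and 13.7% for those that fell at least 2-fold, and 10.8% and 8.57% for all genes that rose and fell. The reverse complement searched was TTTATA. This motif was chosen after the values were seen, and a match describes letters only.

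S100a8 and S100a9, whose proteins form the calprotectin pair of neutrophils, fell together. S100a8 had 37.5 and 72.5 FPKM at day 1 and 2.19 and 7.55 FPKM at day 7 (-3.35, SE 0.40, adjusted p = 0.00014). S100a9 had 42.5 and 74.0 FPKM and then 3.95 and 9.45 FPKM (-2.99, SE 0.34, adjusted p = 1e-04). In both genes replicate 2 was the higher library on each day and the days did not overlap. Sprr1a, a small proline-rich protein gene induced in stressed cardiomyocytes and nerves, had 9.81 and 16 FPKM and then 0.237 and 0 FPKM (-3.61, SE 0.41, adjusted p = 0.00011), having passed the filter through day 1 alone. Of 12 neutrophil markers, 5 passed the filter and all 5 fell, 1 of them having passed through day 1 alone; the other 7 (Mmp8, Csf3r, Camp, Ly6g, Cxcr2, Elane and Mpo) were below it. Of the 5, S100a8 and S100a9 stand on both lists. The summed level of the 12 was 92.3 and 168 FPKM at day 1 and 7.50 and 22.2 FPKM at day 7. In bulk tissue fewer cells of a type and less RNA per cell cannot be told apart.

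Chemokines that draw monocytes and neutrophils were lower at day 7. Ccl6 had 71.0 and 135 FPKM at day 1 and 8.37 and 5.34 FPKM at day 7 (-3.68, SE 0.35, adjusted p = 2.8e-05). Ccl9 had 18.7 and 52.7 FPKM and then 1.93 and 2.67 FPKM (-3.31, SE 0.37, adjusted p = 9.4e-05). In both genes replicate 2 was the higher library at day 1, and no day 7 library reached a day 1 library. Of 21 cytokines and chemokines, 14 passed the filter, 0 rose and 10 fell (median -1.63); 4 of the 14 had passed through day 1 alone, and of the other 10, 6 fell. Among genes named after their values were seen, Ccl2 (12.4 and 18.9, then 2.46 and 2.30 FPKM; -2.28) and Ccl7 (-1.75) draw monocytes, Cxcl1 (-1.83) draws neutrophils, and Il33 (-1.75) is an alarmin released from damaged cells. The growth factors Tgfb1 (-0.13) and Csf1 (-0.10) and the homing chemokine Cxcl12 (0.46) did not pass the test.

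Macrophage markers did not move as 1 block, and their counts stand beside 5.02% of all genes that rose and 13.9% that fell. Of 15, 14 were tested, 7 fell and 1 rose, with a median of -0.52; under the median-of-ratios scaling 4 fell and with quantile normalization 5. Cd68, a lysosomal protein of macrophages, had 6.47 and 10.3 FPKM and then 2.89 and 3.22 FPKM (-1.18, SE 0.28, adjusted p = 0.011). Ccr2, the receptor for Ccl2 on recruited monocytes, had 1.83 and 3.89 FPKM and then 0.647 and 1.00 FPKM (-1.03, adjusted p = 0.0061). Cx3cr1, the fractalkine receptor of resident macrophages, went the other way, from 1.00 and 1.28 FPKM to 3.52 and 3.49 FPKM (1.08, SE 0.18, adjusted p = 0.0014). Complement genes C1qa (-0.09), C1qb (-0.26) and C1qc (-0.41) and the growth factor receptor Csf1r (-0.10) did not pass the test. The call of Cd68 was lost without replicate 2 of day 1 or replicate 1 of day 7 (adjusted p up to 0.11) and that of Ccr2 without replicate 1 of day 7 (0.055). Between 1 and 5 of the list fell across the 4 fits with a library left out. The platelet genes Pf4 (-1.35, adjusted p = 0.007) and Ppbp (-1.48, adjusted p = 0.039) also fell. Both lost the call without replicate 2 of either day (adjusted p up to 0.072 and 0.33), and Ppbp also without replicate 1 of day 7 and under both other scalings.

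Targets of glucocorticoids, the stress hormones of the adrenal gland, were lower at day 7. Fkbp5, a chaperone that dampens the glucocorticoid receptor and was named after its values were seen, had 29.4 and 35.0 FPKM at day 1 and 7.10 and 6.12 FPKM at day 7 (-2.12, SE 0.14, adjusted p = 2.5e-06). The metallothionein gene Mt2 had 98.3 and 93.4 FPKM and then 6.29 and 7.97 FPKM (-3.58, SE 0.50, adjusted p = 0.00047), and its neighbour Mt1 had 191 and 179 FPKM and then 48.9 and 73.7 FPKM (-1.61). Lcn2, the iron-scavenging lipocalin, had 10.04 and 17.6 FPKM and then 0.510 and 0.443 FPKM (-3.28, SE 0.26, adjusted p = 6.9e-06). Lcn2 passed the filter through day 1 alone. Replicates lay close together in Fkbp5 on each day and in the metallothioneins at day 1, and further apart in the metallothioneins at day 7. Of 18 listed targets 17 were tested; 12 fell and 1 rose (median -1.15), and without the 2 that passed through day 1 alone 10 of 15 fell. Dusp1, the phosphatase that rose (0.49, adjusted p = 0.034), kept its call only without replicate 1 of day 1 among the 4 left-out fits (adjusted p up to 0.25). Tsc22d3 (-0.37), Klf9 (-0.31) and Pdk4 (0.10), which are further classic targets, did not pass the test. Between 6 and 12 of the list were lower across the left-out fits.

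Other stress pathways moved by less, and their counts stand beside the 5.02% and 13.9% of all genes that rose and fell. Of 15 tested genes of the NRF2 antioxidant pathway and metallothioneins, 8 fell and 0 rose (median -0.57); beyond Hmox1, Mt1 and Mt2 these were Gsta3, G6pdx, Gstm1, Srxn1 and Txnrd1, between -1.06 and -0.51. Without the 1 gene that passed the filter through day 1 alone, 7 of 14 fell (median -0.54). Under either other scaling 5 of the 15 fell, and 1 rose under the median of ratios. Of 16 heat shock and unfolded protein genes 5 fell (under either other scaling 3 fell and 1 rose), all of them tied to stress of the endoplasmic reticulum: Sdf2l1 (-1.04), Pdia4 (-0.87), Xbp1 (-0.70), Herpud1 (-0.65) and Hspa5 (-0.52). Sdf2l1 was not called without replicate 2 of day 1 or replicate 1 of day 7 (adjusted p up to 0.07). Hspb1 (-0.76) and Hsp90aa1 (-0.38), of the cytosol, did not pass the test. Of 15 genes of the ATF4 amino acid response 4 fell, among them the serine synthesis enzyme Psat1 (24.9 and 24.1, then 9.86 and 9.21 FPKM; -1.28, SE 0.19, adjusted p = 7e-04) and asparagine synthetase Asns (-1.19, adjusted p = 0.0017), while the lipoprotein receptor Vldlr rose (0.63, adjusted p = 0.019; up to 0.14 without replicate 1 of day 1 or of day 7). Cdkn1a, the p53 target that encodes the cell cycle inhibitor p21, had 31.5 and 33.9 FPKM and then 9.52 and 12.6 FPKM (-1.49, SE 0.27, adjusted p = 0.0026).

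**Figure D2:**
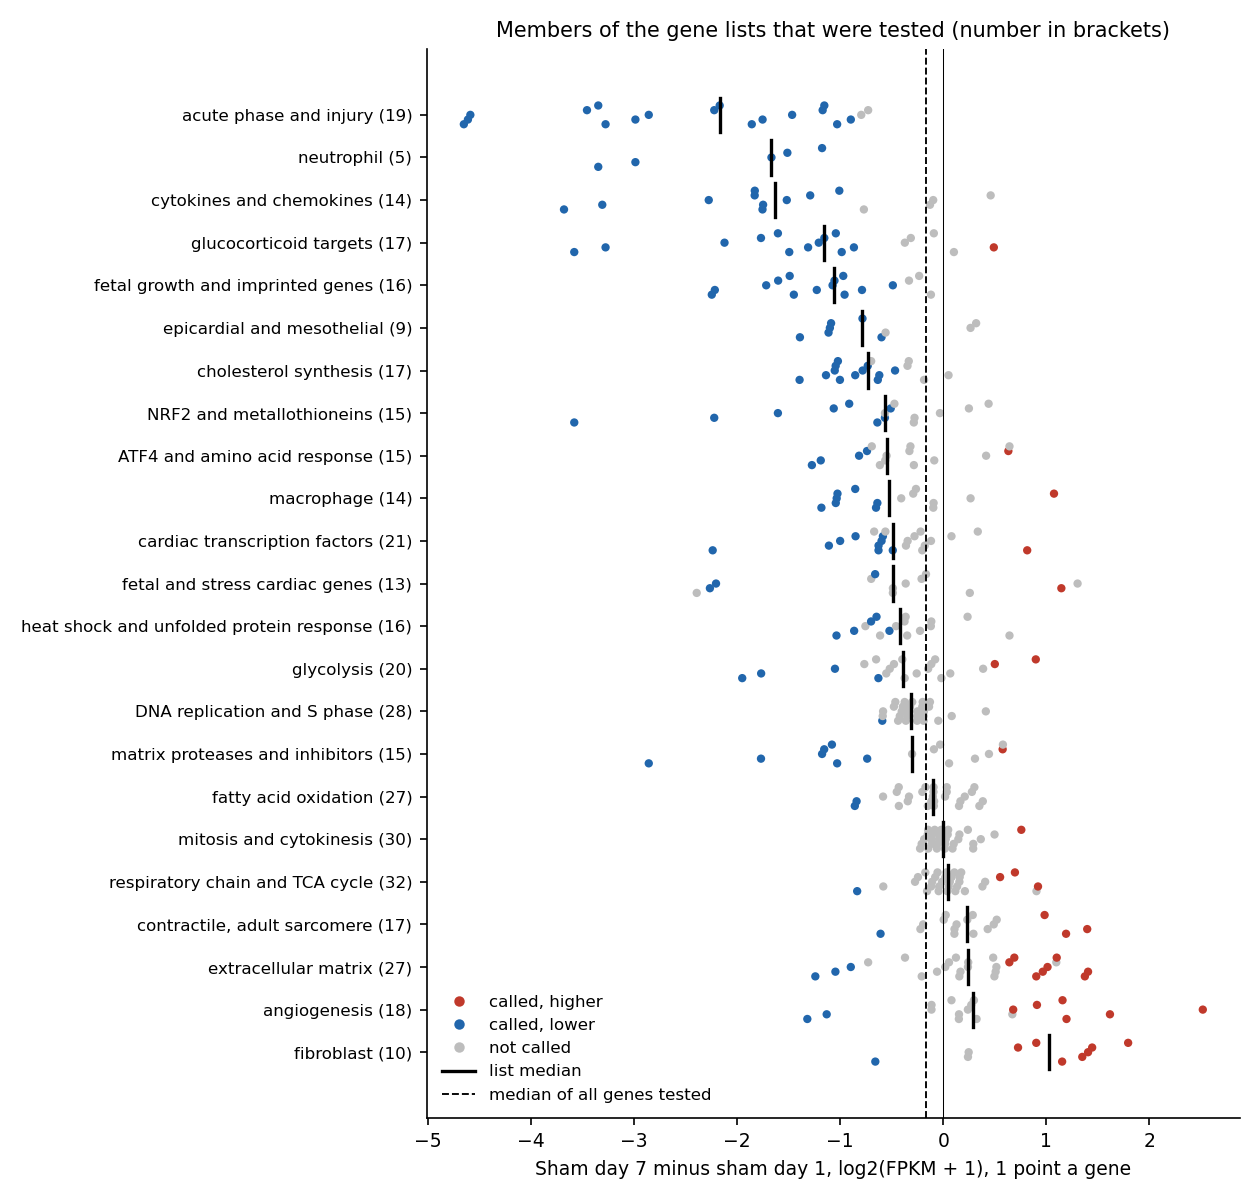
Change from sham day 1 to day 7 (horizontal axis, log2(FPKM + 1)) for each tested member of 23 gene lists (rows, number tested in brackets); red and blue points were called higher and lower, grey were not called, the bar is the list median and the dashed line the median of all genes (-0.17). The acute-phase list lies farthest left (median -2.17) and the fibroblast list farthest right (1.03).

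The largest increases were in genes of several kinds. Ankrd23, an ankyrin repeat protein of the sarcomere (ENSMUSG00000067653, chromosome 1, 36587378 to 36592584), had 12.6 and 12.2 FPKM at day 1 and 96.4 and 103 FPKM at day 7. Ckmt2, the sarcomeric mitochondrial creatine kinase that passes energy from mitochondria to the myofibril (ENSMUSG00000021622, chromosome 13, 91992991 to 92016490), had 89.8 and 84.0 FPKM and then 514 and 498 FPKM. Both pairs of replicates were close and far apart between the days. Ankrd23 rose by 2.91 (SE 0.33, adjusted p = 0.00011) and Ckmt2 by 2.53 (SE 0.17, adjusted p = 2.8e-06). Alpl, alkaline phosphatase, had 1.25 and 0.898 FPKM and then 12 and 13.5 FPKM (2.73, SE 0.22, adjusted p = 6.9e-06). C1qtnf9, a secreted protein related to adiponectin, had 1.39 and 1.66 FPKM and then 16.1 and 14.1 FPKM (2.67, SE 0.17, adjusted p = 2e-06).

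Further large increases were found for Tuba8 and Mapt. Tuba8, an alpha tubulin, had 3.49 and 1.84 FPKM and then 21.8 and 19.5 FPKM (2.60), and Mapt, the microtubule-binding protein tau, had 0.339 and 0.759 FPKM and then 8.29 and 8.03 FPKM (2.58), having passed the filter through day 7 alone. Rxrg, a retinoid X receptor, had 2.10 and 2.04 FPKM and then 14.0 and 15.4 FPKM (2.35, SE 0.16, adjusted p = 2.8e-06). Pcsk6, a protease that matures pro-proteins in the heart, had 3.72 and 3.30 FPKM and then 20.7 and 22.3 FPKM (2.32). Lrrc15 (2.35), Lrtm1 (2.31), the elastic fibre protein Mfap4 (2.26) and Klhdc8a (2.17) also rose without overlap between the days. Mylk4, a muscle kinase gene, had 18.4 and 4.94 FPKM at day 7 against 1.18 and 1.53 FPKM, and its call (2.19, adjusted p = 0.013) was lost without either day 1 library or replicate 1 of day 7 (adjusted p up to 0.13). The ribosomal pseudogene Rpl17-ps5 (2.50) and the gene Rpl26 (-3.12) met the naming rule, but each has near-identical copies among which counting can divide reads, and their values are uncertain. Rpl26 lost its call without replicate 1 of day 1 or replicate 2 of day 7, and Rpl17-ps5 without replicate 2 of day 1 or either day 7 library.

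Adult sarcomere genes are read against the shares over all genes, 5.02% that rose and 13.9% that fell. Of 17 tested, 3 rose and 1 fell, with a median of 0.23; the 3 were Myom2, an M-band protein (88.7 and 82.9, then 213 and 242 FPKM; 1.40, SE 0.21, adjusted p = 0.00067), Lmod2, which controls thin filament length (107 and 127, then 266 and 268 FPKM; 1.19, SE 0.14, adjusted p = 1e-04) and Trim54 (0.98). Under the median of ratios 5 of the 17 rose and 0 fell, where 982 and 956 of all 12479 genes did. Alpha myosin heavy chain Myh6 (2704 and 1645, then 2127 and 2433 FPKM; 0.11) and cardiac troponin I, Tnni3 (1305 and 1043, then 1280 and 1581 FPKM; 0.29), overlapped between the days and did not pass the test. Cardiac troponin T, Tnnt2, was at 5983 and 5001 FPKM and then 3309 and 3888 FPKM (-0.61, adjusted p = 0.028), and lost its call under both other scalings and in all 4 left-out fits (adjusted p 0.052 to 0.18). The direction of Myh6 turned to -0.25 without replicate 2 of day 1.

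Fetal and stress cardiac genes were divided, with 3 of 13 lower (2 under either other scaling) and 1 higher, beside 13.9% and 5.02% of all genes. Tnni1, the slow skeletal troponin I of the fetal heart (ENSMUSG00000026418, chromosome 1, 137679641 to 137707566), had 599 and 460 FPKM at day 1 and 85.8 and 149 FPKM at day 7. Both day 7 libraries lay far under both day 1 libraries, and Tnni1 fell by 2.21 (SE 0.27, adjusted p = 0.00018). Myl4, the atrial and fetal light chain, had 31.4 and 23.7 FPKM and then 4.83 and 4.96 FPKM (-2.27, SE 0.45, adjusted p = 0.0044). Myl7, the atrial regulatory light chain, had 23.0 and 12.9 FPKM and then 1.2 and 4.48 FPKM, which did not pass the test (-2.39, adjusted p = 0.061). Beta myosin heavy chain Myh7 had 205 and 144 FPKM and then 98.6 and 119 FPKM (-0.66, adjusted p = 0.037), a call lost under both other scalings and without replicate 1 of day 1 or either day 7 library (adjusted p up to 0.25). The natriuretic peptide genes Nppa (251 and 303, then 212 and 182 FPKM; -0.49) and Nppb (156 and 237, then 542 and 419 FPKM; 1.3, adjusted p = 0.079) did not pass the test. The gene that rose was the stretch-responsive Ankrd1 (1.15, adjusted p = 0.035); no left-out fit kept the call of Ankrd1.

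Of 21 cardiac transcription factors 9 fell and 1 rose (median -0.49), beside 13.9% and 5.02% of all genes; 5 fell under the median of ratios and 4 under quantile normalization. Hey2, a Notch target that marks compact ventricular muscle, had 30.1 and 22.8 FPKM and then 4.16 and 5.44 FPKM (-2.24, SE 0.19, adjusted p = 9.4e-06). Gata6 had 77.4 and 68.4 FPKM and then 31.6 and 34.9 FPKM (-1.11, SE 0.12, adjusted p = 6e-05), and the ventricular factor Irx4 had 16.7 and 12.5 FPKM and then 5.98 and 7.56 FPKM (-1.0). Thrb, a thyroid hormone receptor, went from 0.447 and 0.597 FPKM to 1.61 and 1.74 FPKM (0.81, adjusted p = 0.0063) and passed the filter through day 7 alone. Gata4 (-0.18), Mef2c (0.08) and Hand2 (-0.56) did not pass the test. T-type calcium channel genes of the fetal heart fell: Cacna1h (4.55 and 2.82, then 0.716 and 0.247 FPKM; -1.65, adjusted p = 0.0012), which passed the filter through day 1 alone and could differ in 1 direction, and Cacna1g (-1.13, adjusted p = 0.0067; 0.063 without replicate 1 of day 1). Of 17 calcium handling genes, Hrc (0.87; adjusted p = 0.063 without replicate 2 of day 1) and S100a1 (179 and 185, then 271 and 276 FPKM; 0.58, adjusted p = 0.0038), which tune calcium release, rose, while the pump Atp2a2 (0.16) and its inhibitor Pln (0.14) did not pass the test.

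The lists of energy metabolism are read against the shares over all genes, 5.02% that rose and 13.9% that fell. Of 27 fatty acid oxidation genes 2 fell and 0 rose (median -0.09): Cpt1a, the carnitine transferase of fetal heart, had 37.8 and 43.2 FPKM and then 21.6 and 22.0 FPKM (-0.86, SE 0.16, adjusted p = 0.0026), and Acot2 (-0.84) lost its call under both other scalings and without replicate 2 of day 1 or replicate 1 of day 7 (adjusted p up to 0.19). Of 32 respiratory chain and TCA cycle genes 3 rose and 1 fell (median 0.05). Both called cytochrome oxidase genes have tissue isoforms: the muscle subunit Cox8b rose (77.4 and 82.9, then 144 and 162 FPKM; 0.92, adjusted p = 0.0023) and the ubiquitous Cox6a1 fell (131 and 122, then 71.1 and 69.6 FPKM; -0.84, adjusted p = 0.0027). Of 20 glycolysis genes 4 fell and 2 rose (median -0.39), and without Aldoc, which passed the filter through day 1 alone, 3 of 19 fell. Aldoc (4.57 and 3.26, then 0.350 and 0.174 FPKM; -1.95), the lactate carrier Slc16a3 (10.02 and 9.38, then 2.40 and 1.90 FPKM; -1.77, adjusted p = 0.00035) and the fetal glucose carrier Slc2a1 (-1.05) fell. The insulin-sensitive carrier Slc2a4 (0.90, adjusted p = 0.015) rose, a call lost without replicate 2 of either day (adjusted p up to 0.15). Of 10 genes of ketone use and creatine kinases 2 rose and 2 fell (median 0.0047). The 2 that rose were Ckmt2 and Oxct1, and Bdh1 fell (-0.91; adjusted p up to 0.06 without replicate 1 of day 1 or replicate 2 of day 7), having passed the filter through day 1 alone. Oxct1, which uses ketone bodies, rose (140 and 89.6, then 263 and 236 FPKM; 1.15, adjusted p = 0.0012).

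Fetal growth genes fell together. Igf2, the fetal insulin-like growth factor (ENSMUSG00000048583, chromosome 7, 149836672 to 149852721), had 427 and 362 FPKM at day 1 and 126 and 132 FPKM at day 7 (-1.60, SE 0.18, adjusted p = 0.00011). Plagl1, an imprinted zinc finger gene, had 70.6 and 66.2 FPKM and then 13.2 and 14.7 FPKM (-2.22, SE 0.16, adjusted p = 3e-06), and the imprinted Dlk1 had 19.1 and 14.2 FPKM and then 2.57 and 2.80 FPKM (-2.25, SE 0.28, adjusted p = 0.00019). The replicates of each day were close in all 3 genes and the days were far apart. Of 21 listed genes 18 were found and 16 tested; 13 fell and 0 rose, with a median of -1.07, and without the 2 that passed through day 1 alone 11 of 14 fell. The RNA-binding protein gene Igf2bp3 (9.10 and 9.06, then 2.66 and 2.72 FPKM; -1.45) and the receptor Igf2r (-1.06), which clears Igf2, were among them; both were named after their values were seen. Meg3 (-0.33), Ndn (-0.23) and Igf1 (-0.12) did not pass the test. Under the other scalings 12 of the 16 fell in each case, and with 1 library left out 10 or 11.

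Cholesterol synthesis genes fell together as well. Idi1, the isopentenyl diphosphate isomerase (ENSMUSG00000058258, chromosome 13, 8884851 to 8891641 in mm9), had 20.8 and 18.2 FPKM at day 1 and 6.99 and 6.60 FPKM at day 7 (-1.39, SE 0.15, adjusted p = 8.1e-05). Squalene epoxidase, Sqle, had 6.24 and 7.08 FPKM and then 2.92 and 2.51 FPKM (-1.04, SE 0.15, adjusted p = 0.00056), and Hsd17b7, a late enzyme of the pathway, had 5.79 and 4.32 FPKM and then 2.09 and 1.91 FPKM (-1.0, SE 0.17, adjusted p = 0.0017). No day 7 library reached a day 1 library in these genes, of which Sqle and Hsd17b7 were named after their values were seen. Of 19 listed genes 17 were tested, and 12 fell and 0 rose, with a median of -0.73; 9 fell under the median of ratios, 10 under quantile normalization, and 3 to 9 across the left-out fits. Insig1 (-0.19) and Sc5d (0.05) did not pass the test.

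The promoters of Idi1 and Hsd17b7 are shown because genes of this pathway commonly carry CCAAT boxes, the letters bound by the factor NF-Y. The RefSeq windows (GRCm38.p6) are chr13:8885356-8885655 on the plus strand and chr1:169969156-169969455 on the minus strand, 5′ to 3′ on the gene's strand, with CCAAT or its reverse complement ATTGG in capitals.
Idi1: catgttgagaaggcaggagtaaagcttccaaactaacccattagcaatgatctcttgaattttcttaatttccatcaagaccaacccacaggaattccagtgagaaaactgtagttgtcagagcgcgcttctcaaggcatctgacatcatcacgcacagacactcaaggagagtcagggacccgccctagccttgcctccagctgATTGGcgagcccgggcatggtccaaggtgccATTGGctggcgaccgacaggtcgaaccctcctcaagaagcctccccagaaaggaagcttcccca
Hsd17b7: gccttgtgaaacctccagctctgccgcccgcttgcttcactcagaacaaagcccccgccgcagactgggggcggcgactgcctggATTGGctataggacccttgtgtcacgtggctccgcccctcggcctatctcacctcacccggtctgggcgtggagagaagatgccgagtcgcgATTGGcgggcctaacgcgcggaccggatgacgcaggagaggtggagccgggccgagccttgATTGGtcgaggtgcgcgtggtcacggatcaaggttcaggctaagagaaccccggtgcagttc
In Idi1 the letters lie 45 and 14 bases before the start and in Hsd17b7 165, 73 and 12 bases before it, all on the opposite strand. CCAAT was found on either strand in 12 of 13 windows of cholesterol genes (92.3%), in 39.0% of windows of genes tested and in 37.9% of all 27025 windows. It was also found in 21 of 26 windows of mitosis and cytokinesis genes (80.8%), a list with 1 called gene of 30 tested. Among all genes that fell the share was 39.2% of 1132 windows, and among those that rose 40.5% of 398. A match describes letters and shows no binding.

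Few cell cycle genes passed the test, beside 5.02% of all genes that rose and 13.9% that fell. Mki67, the proliferation antigen, had 8.89 and 8.76 FPKM at day 1 and 11.7 and 10.4 FPKM at day 7 (0.29, adjusted p = 0.49), and the mitotic cyclin Ccnb1 had 2.21 and 4.78 FPKM and then 3.21 and 3.29 FPKM (-0.02, adjusted p = 0.97). Of 30 mitosis genes 1 rose and 0 fell, with a median of -0.00 as deposited, 0.12 under the median of ratios and 0.16 under quantile normalization, so their small direction depends on the scaling. The gene that rose, the centromere histone Cenpa (0.76, adjusted p = 0.04), was called in none of the 4 left-out fits (adjusted p 0.08 to 0.18). Of 28 DNA replication genes 1 fell, Mcm10 (-0.59, adjusted p = 0.038), with a median of -0.31; Mcm10 was called neither under the other scalings nor in any left-out fit. For the single genes of the 2 lists the estimates ran from -0.59 to 0.76. Cyclin D1, Ccnd1, which starts the cell cycle, had 24.1 and 18.8 FPKM and then 42.8 and 44.8 FPKM (1.00, SE 0.14, adjusted p = 0.00036), and Mycn had 1.34 and 1.05 FPKM and then 4.88 and 5.26 FPKM (1.47), while Myc had 8.73 and 9.98 FPKM and then 2.60 and 2.05 FPKM (-1.64, SE 0.20, adjusted p = 0.00016).

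Fibroblast markers were higher at day 7. Of 10 fibroblast markers all 10 were tested, 7 rose and 1 fell, with a median of 1.03; the count of 7 was the same in each left-out fit and under both other scalings. Tcf21, the transcription factor of cardiac fibroblasts, had 6.5 and 5.58 FPKM at day 1 and 15 and 14.3 FPKM at day 7 (1.15, SE 0.17, adjusted p = 0.00053). Lumican, Lum, which spaces collagen fibrils, had 33.5 and 43.9 FPKM and then 119 and 89.7 FPKM (1.41, SE 0.19, adjusted p = 0.00035), and dermatopontin, Dpt, had 46.5 and 40.7 FPKM and then 112 and 113 FPKM (1.35). Pi16, a marker of adventitial fibroblasts, had 1.26 and 1.85 FPKM and then 6.36 and 9.53 FPKM (1.79, SE 0.31, adjusted p = 0.002). Gelsolin, Gsn, fell (-0.66, adjusted p = 0.0065; up to 0.058 without replicate 1 of either day), and Pdgfra (0.25) did not pass the test. The summed level of the 10 was 462 and 494 FPKM at day 1 and 894 and 789 FPKM at day 7.

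Matrix genes themselves were divided. Leaving out the 1 that passed the filter through day 7 alone and could only rise, 7 of 26 rose and 3 fell. Of 27 tested, 8 rose and 3 fell (median 0.24); the counts were 13 and 2 under each of the other scalings, and 5 to 6 and 2 to 4 with 1 library left out. Col3a1, of the fibrillar collagens, had 180 and 196 FPKM and then 411 and 331 FPKM (0.97, SE 0.20, adjusted p = 0.0054; 0.056 without replicate 1 of day 7), and Col14a1, which binds fibrils, had 13.6 and 11.8 FPKM and then 35.8 and 33.1 FPKM (1.37, SE 0.19, adjusted p = 0.00047). Col1a1 (79.5 and 62.0, then 91.2 and 75.7 FPKM; 0.24) overlapped and did not pass the test. The collagen crosslinker Lox went the other way (22.9 and 33.3, then 12.2 and 10.1 FPKM; -1.24, SE 0.21, adjusted p = 0.0014), as did Col12a1 (-1.05) and Thbs1 (-0.90), genes known from wound matrix. Of 15 matrix proteases and inhibitors 7 fell and 1 rose (median -0.30). Without Mmp9 and Adamts4, which passed the filter through day 1 alone, 5 of 13 fell (median -0.091), beside 12.7% of all genes of that kind. Beside Timp1, those that fell included Timp4 (9.44 and 12.3, then 1.53 and 3.73 FPKM; -1.77, adjusted p = 0.0038), Mmp9, Adamts1, Adamts4 and Plaur, and the riser was Adamts5 (0.58; adjusted p up to 0.12 without replicate 1 of either day).

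Genes of vessels rose in part. Apln, the peptide apelin of sprouting endothelium (ENSMUSG00000037010, chromosome X, 45378322 to 45388030), had 3.56 and 3.41 FPKM at day 1 and 26.5 and 23.0 FPKM at day 7 (2.52, SE 0.18, adjusted p = 3e-06). Its receptor gene Aplnr had 18.0 and 13.5 FPKM and then 33.3 and 38.7 FPKM (1.16, SE 0.16, adjusted p = 0.00046), so ligand and receptor rose together. Cxcr4, the receptor for Cxcl12, had 2.15 and 4.14 FPKM and then 10.4 and 12.4 FPKM (1.62, SE 0.23, adjusted p = 0.00047). Nrp2 (0.91) and Esm1 (1.2) also rose; they and Aplnr were named after their values were seen, and Esm1 passed the filter through day 7 alone. Of 18 angiogenesis genes 6 rose and 2 fell, the latter being Angpt1 (4.72 and 4.41, then 1.14 and 1.33 FPKM; -1.32) and Plvap (-1.13). Among 9 endothelial markers the growth factor receptor Kdr rose (0.68, adjusted p = 0.015; up to 0.096 without either day 1 library or replicate 2 of day 7) and Cdh5 (0.31), Tie1 (0.15) and Vwf (-0.01) did not pass the test. The pericyte genes Rgs5 (86.4 and 93.8, then 295 and 273 FPKM; 1.65, SE 0.14, adjusted p = 9.4e-06) and Kcnj8 (0.95) rose, and the smooth muscle calponin Cnn1 fell (-1.11, adjusted p = 0.01; up to 0.059 without replicate 2 of either day).

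Markers of the epicardium, the outer layer of the heart, were lower: of 9 tested 6 fell and 0 rose (median -0.78), and 1 to 5 fell across the left-out fits. Krt8 passed the filter through day 1 alone, and of the other 8, 5 fell. Upk1b had 9.65 and 13.7 FPKM and then 4.53 and 3.11 FPKM (-1.39, adjusted p = 0.0052; 0.057 without replicate 2 of day 1) and the keratin Krt18 had 3.90 and 8.07 FPKM and then 2.07 and 2.09 FPKM (-1.11, adjusted p = 0.0045). Among hypoxia genes Hif3a had 8.12 and 6.13 FPKM and then 0.146 and 0.243 FPKM (-2.76, SE 0.16, adjusted p = 8e-07), having passed the filter through day 1 alone, and Ddit4, also a glucocorticoid target, had 45.8 and 45.4 FPKM and then 11.1 and 14.5 FPKM (-1.77, adjusted p = 0.0015). Hif1a (-0.17) did not pass the test, and of 16 hypoxia targets 4 fell and 2 rose. These counts and those of the lists that follow stand beside 13.9% of all genes that fell and 5.02% that rose. Of 20 immediate early genes 3 rose and 4 fell; Fos had 5.29 and 5.96 FPKM and then 1.21 and 2.68 FPKM (-1.21, adjusted p = 0.0082; up to 0.087 without replicate 2 of day 1 or replicate 1 of day 7). Among 16 clock genes the repressor Bhlhe41 rose (0.88, adjusted p = 0.00076) and Nfil3 fell (-0.95, adjusted p = 0.00081); the labels used here give no time of day. Of 22 ribosomal protein genes, whose copies make counting uncertain, 4 fell and 1 rose (median -0.52), and 21 estimates were below 0; under either other scaling 3 fell. The gene that rose was the muscle paralogue Rpl3l, from 7.94 and 5.53 FPKM to 29.9 and 35.5 FPKM (2.14, SE 0.21, adjusted p = 3.3e-05).

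Cells from outside the ventricle wall were looked for by markers. None of 16 lymphocyte and thymus markers passed the filter. Of 7 red cell genes limma called 0 in the deposited values, with 3 higher at an unadjusted p under 0.05. Under either other scaling limma called 2 of them higher at an adjusted p under 0.05. The estimate was above 0 for 6 of the 7 red cell genes. Over all 12479 genes tested, 4300 had an unadjusted limma p under 0.05, in either direction. Replicate 1 of day 1 was the low library: Hbb-b1 had 223 and 554 FPKM at day 1 and 640 and 553 FPKM at day 7. Of 9 atrial markers Myl4 and Bmp10 (-1.70) fell, and Nr2f2 (0.04) and Sln (0.07) did not pass the test. Bmp10 passed the filter through day 1 alone, and of the other 8 markers 1 fell. The lung surfactant gene Sftpc was uneven, at 0.118 and 3.27 FPKM at day 1 and 1.99 and 23.5 FPKM at day 7 (1.97, adjusted p = 0.081). The part of these cells in the results was not tested.

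**Figure D3:**
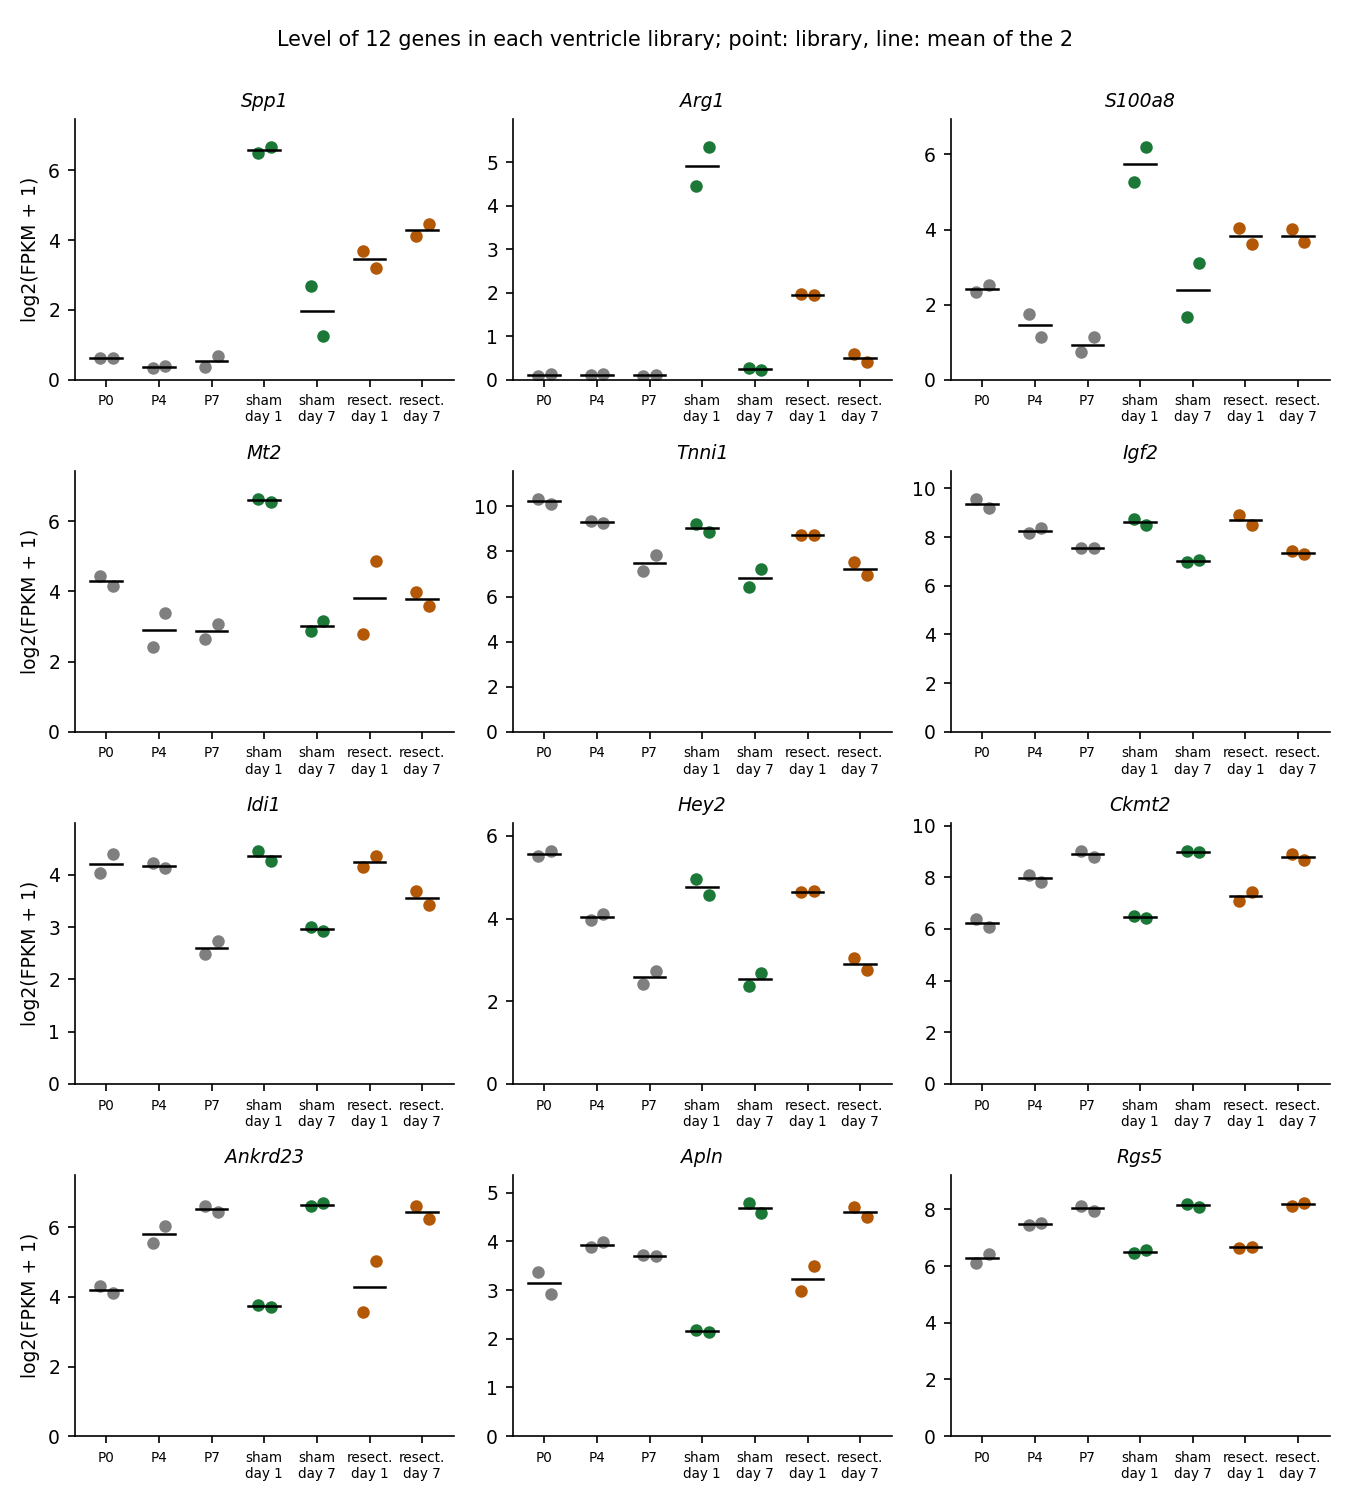
Level (vertical axis, log2(FPKM + 1)) of 12 genes in each ventricle library, by group (horizontal axis: unoperated P0, P4 and P7 in grey, sham in green, resection in orange); points are libraries and lines the mean of the 2. Spp1, Arg1, S100a8 and Mt2 are highest at sham day 1, while Tnni1, Igf2, Idi1 and Hey2 fall and Ckmt2, Ankrd23 and Rgs5 rise from the earlier to the later time in the unoperated and in the sham libraries.

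The change after sham surgery was then set beside growth without surgery, P7 against P0, which shares no library with it. On the same 12479 genes, 536 were higher (4.3%) and 1064 lower (8.53%) at P7. Of the 627 genes that rose after sham, 309 (49.3%) were also higher at P7, which is 57.6% of the 536. Of the 1733 that fell, 560 (32.3%) were also lower at P7, which is 52.6% of the 1064. Under the median of ratios these shares of the sham calls were 51.6% and 31.6%. Genes called in opposite directions numbered 1 and 6. Across the 12479 genes the 2 changes correlated at Pearson r = 0.587, a description over genes that are not independent.

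The lists of growth genes had like counts in the 2 comparisons. Fetal growth genes fell in 13 of 16 after sham and in 14 of 16 without surgery (medians -1.07 and -1.10), cholesterol genes in 12 and 13 of 17 (-0.73 and -0.82), and fibroblast genes rose in 7 and 6 of 10 (1.03 and 0.80). Of the differences between the 2 changes limma called 0, 0 and 1; at an unadjusted p under 0.05 the sham change was higher for 3 and lower for 1 of the fetal growth genes and higher for 3 of the cholesterol genes. Tnni1 changed by -2.21 after sham and -2.75 without surgery, Ckmt2 by 2.53 and 2.67, and Igf2 by -1.60 and -1.82. The difference was 0.55 (SE 0.38) for Tnni1, -0.14 (SE 0.24) for Ckmt2 and 0.22 (SE 0.26) for Igf2, and none of the 3 passed the test, which does not show that the changes were equal. Mitosis genes had medians of -0.00 after sham and -0.62 without surgery, and replication genes -0.31 and -0.54. Limma called 0 of these differences. At an unadjusted p under 0.05 the sham change was the higher for 9 of 30 mitosis and 2 of 28 replication genes. At that threshold 1293 of all 12479 genes tested differed between the 2 changes, in either direction.

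The difference between the sham change and the unoperated change was called for 93 genes (0.745% of those tested), 16 higher (0.128%) and 77 lower (0.617%). Arg1 changed by -4.66 after sham and by -0.00 from P0 to P7, where it stayed under 0.1 FPKM in all 4 libraries (difference -4.66, SE 0.31, adjusted p = 1e-05). Differences of the same kind were found for Saa3 (-4.63), Spp1 (-4.52), Serpina3n (-4.46), Ccl6 (-3.76) and Sprr1a (-3.57, adjusted p = 0.012). In the P0 and P7 libraries Saa3 was at 0 to 0.029 FPKM and Sprr1a at 0 to 0.049 FPKM. Serpina3n was at 0.22 to 0.36 FPKM there and Spp1 at 0.29 to 0.61 FPKM. From such P0 levels, and that of Arg1, an unoperated fall could hardly be seen, so these differences largely repeat the sham changes. Of the 19 acute-phase genes 9 were among the 77, and of 14 cytokines 6. Through sham day 1 alone 7 of the 19 and 4 of the 14 had passed the filter, so they could only fall after sham. In the other direction Apln changed by 2.52 after sham and by 0.57 without surgery (difference 1.95, SE 0.25, adjusted p = 0.0041). Ppp1r3c, which targets a phosphatase to glycogen, had 19.8 and 21.0 FPKM at sham day 1 and 99.9 and 78.8 FPKM at day 7, a change of 2.07 against 0.40 (difference 1.67, adjusted p = 0.011). For Tcf21 (1.44), Mycn (1.34), Ccnd1 (1.32) and Pdlim3 (1.34) the sham change was also the more positive. Pdlim3, a muscle LIM protein gene, did not change after sham at the threshold (0.15) and fell without surgery (-1.18). The differences of Pdlim3, Ppp1r3c, Tcf21, Mycn and Sprr1a each lost the call without replicate 2 of sham day 1, without replicate 1 of P0 and without at least 1 of the P7 libraries. The number called was 33 without replicate 2 of sham day 1 or replicate 2 of P7, and 144 without replicate 1 of sham day 1. Fos fell after sham and rose from P0 to P7 (1.00), a difference of -2.22 (adjusted p = 0.017).

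The change after resection, day 7 against day 1, also shares no library with the sham change. It had 1826 genes higher (14.6%) and 440 lower (3.53%), with a median over all genes of 0.15 where the sham change had -0.17. Of the sham calls, 446 of 627 that rose (71.1%) also rose after resection and 263 of 1733 that fell (15.2%) also fell. In the opposite direction, 2 that rose after sham fell after resection and 83 that fell after sham rose. Under the median of ratios the shares were 49.7% and 32.9%, with 4 and 36 called in the opposite direction, so they depend on the scaling. The difference between the resection change and the sham change was called for 927 genes (7.43%), 890 higher (7.13%) and 37 lower (0.296%), with a median difference of 0.30. With the median of ratios it was 241 and 85, and with quantile normalization 178 and 97. Without replicate 2 of resection day 1 the number called was 2742, against 927 with it, and it was 253 without replicate 2 of sham day 1 and 261 without replicate 1 of resection day 7.

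**Figure D4:**
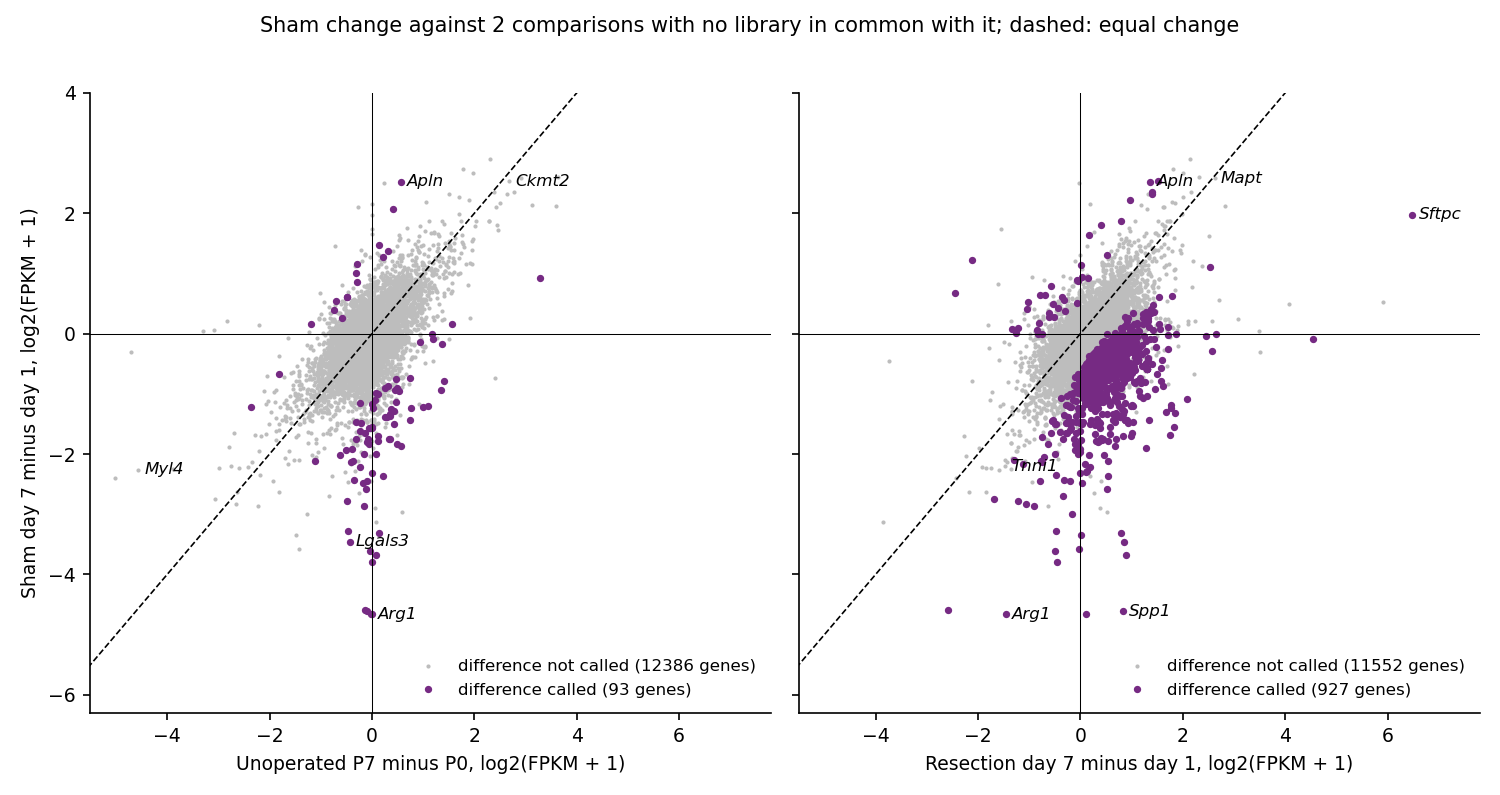
Sham change (vertical axes, log2(FPKM + 1)) against the unoperated change from P0 to P7 (left, horizontal axis) and the resection change from day 1 to day 7 (right, horizontal axis), 1 point a gene; purple points differ between the 2 changes at adjusted p under 0.05 (93 and 927 genes) and the dashed line is equal change. The steepest sham decreases, such as Arg1 at -4.66, lie near 0 on the unoperated axis.

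Acute-phase genes differed between the operations. Spp1, at 89.8 and 101 FPKM at sham day 1 and 5.47 and 1.38 FPKM at sham day 7, had 11.9 and 8.27 FPKM at resection day 1 and 16.2 and 20.9 FPKM at resection day 7. Its changes were -4.61 after sham and 0.83 after resection (difference 5.44, SE 0.47, adjusted p = 0.00016). Saa3 differed by 4.77, Ccl6 by 4.57, Lgals3 by 4.32 and Ccl9 by 4.09. Of 19 acute-phase genes the difference was called as higher for 14, and for 12 under each of the other scalings. Among the 19, 7 passed the filter through sham day 1 alone. For these 7 the sham change could only be a fall, which favours a higher difference. A count without them was not taken. Serpina3n fell after both operations, by 4.59 and by 2.59. Beside these differences stand the day 1 levels, which were higher in both libraries labelled sham for all 19.

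Some differences went the other way. Kcnip2, a subunit of the transient outward potassium channel, had 22.0 and 12.1 FPKM at sham day 1 and 54.5 and 51.3 FPKM at sham day 7 but 42.9 and 43.9 FPKM and then 47.7 and 49.4 FPKM after resection (difference -1.48, SE 0.34, adjusted p = 0.026). Apln rose after both, by 2.52 and 1.37 (difference -1.15, adjusted p = 0.02), and so did Ckmt2, by 2.53 and 1.51 (difference -1.02, adjusted p = 0.029). Oxct1 rose after sham (1.15) and changed by 0.01 after resection (difference -1.14, adjusted p = 0.025). Art1 (-1.40), Rnaset2b (-1.35), Pdzd9 (-1.28) and Ssh2 (-3.13) also had negative differences; Kcnip2, Art1, Pdzd9 and Apln lost the call without replicate 2 of sham day 1, among other libraries, and Pdzd9 also under the median of ratios. Sftpc differed by 4.51 (adjusted p = 0.027), being at 164 and 83.2 FPKM in the resection day 7 libraries, and lost the call under quantile normalization and without replicate 2 of sham day 1, replicate 1 of sham day 7 or replicate 1 of either resection day. Fetal growth genes fell in 13 of 16 after sham and in 8 after resection (medians -1.07 and -0.46). The difference was called higher for 5, and for 0 under either other scaling. The 2 of the 16 that passed the filter through sham day 1 alone could only fall after sham. Cholesterol genes fell in 12 of 17 and in 4 (medians -0.73 and -0.38), with 0 differences called by limma and 4 higher and 1 lower at an unadjusted p under 0.05. By the same measure 3499 of all 12479 genes tested differed, in either direction. Among single genes, Igf2 changed by -1.60 and -1.34, Hey2 by -2.24 and -1.74, and Rgs5 by 1.65 and 1.52.

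Finally, the genes that rose and fell were looked up in a readout that the comparison did not use, isolated P0 cardiomyocytes (3 libraries) against whole P0 ventricle (2 libraries). The 627 genes that rose had a median log2 ratio of -0.74, the 1733 that fell -0.62 and all genes tested -0.62. For genes that rose at least 2-fold the median was -0.54 and for those that fell at least 2-fold -0.58, so the order of the medians depends on the size of change chosen. Of the genes that rose, 32.7% were more than 2-fold lower in the isolated cells, against 13.5% of those that fell and 14.9% of all genes tested; for changes of at least 2-fold the shares were 28.7% and 21.4%.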

How the data were processed

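RNA was sequenced from mouse ventricle and isolated cardiomyocytes; 4 sham libraries are compared here, beside 4 resection and 4 unoperated P0 and P7 libraries. The authors deposited 1 table of FPKM values for 36128 gene models (mm9); the submitters' processing notes list Cuffdiff, Cufflinks 1.2.1, TopHat 1.3.2 and Bowtie 0.12.7, whose settings are not given in the sources used here. The table holds 8745 values above 0 but below 1e-06, so values are not whole multiples of a read and the depth behind each is unknown. The 4 sham libraries had 11967 to 12420 models at 1 FPKM or more. FPKM is a share of a library, so a few very abundant transcripts shift all other values, and reads of near-identical genes may be divided among them.

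Values were transformed to log2(FPKM + 1). Gene models with at least 1 FPKM in 2 or more sham libraries (12479) were fitted with limma 3.58.1 (R 4.3.3). The fit held 16 ventricle libraries in 8 groups, adult ventricle among them. It had 8 residual degrees of freedom and a variance prior that follows expression. P-values were adjusted by the Benjamini-Hochberg method over all genes tested, and a gene was called at 0.05. The filter's edge lay between second-highest values of 0.999939 and 1.00016 FPKM, with 239 models from 0.9 to 1 and 226 from 1 to 1.1. Groups came from the sample labels, and the fit was tested on simulated data. Alternatives were another pseudocount, filter, scaling, set of libraries and variance prior, a replicate block, a fold minimum and leaving out each library.

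The 47 gene lists (27 pathway, 20 cell type) hold 775 entries, of which 741 were found, 4 of them by an older symbol, and 613 tested. Genes named are the 15 largest called changes each way with 5 FPKM in a group mean and no overlap of replicates, up to 2 each way per list, the 6 largest differences each way, and a few fixed genes. Other list members named in the text were chosen after their values were seen. Some genes chosen in these ways are not reported here. The comparison and the lists were chosen with earlier results of these data known. Same-numbered sham libraries did not deviate together (r -0.06). Promoter windows are from RefSeq (GRCm38.p6), 1 per gene for 27025 genes.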

Additional observations from a re-analysis of the deposited data

Results flagged for a closer look

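The change from sham day 1 to day 7 differed from the unoperated change from P0 to P7 for 93 genes by a test of the difference itself. On the log2(FPKM + 1) scale, sham minus unoperated, the differences were -4.66 for Arg1, -4.63 for Saa3, -4.52 for Spp1, -4.46 for Serpina3n, -3.76 for Ccl6 and -3.57 for Sprr1a. All of these genes but Ccl6 were under 1 FPKM in the P0 and P7 libraries. The differences were 1.95 for Apln, 1.67 for Ppp1r3c, 1.44 for Tcf21, 1.34 for Mycn, 1.34 for Pdlim3 and 1.32 for Ccnd1.

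The resection change differed from the sham change for 927 genes by the same kind of test. Resection minus sham was 5.44 for Spp1, 4.77 for Saa3, 4.57 for Ccl6, 4.51 for Sftpc, 4.32 for Lgals3 and 4.09 for Ccl9. It was -3.13 for Ssh2, -1.48 for Kcnip2, -1.40 for Art1, -1.35 for Rnaset2b, -1.28 for Pdzd9 and -1.15 for Apln. At day 1 Spp1 was at 89.8 and 101 FPKM in the libraries labelled sham and 11.9 and 8.27 FPKM in those labelled resection. Saa3 was at 38.7 and 41.4 against 3.18 and 2.63 FPKM, and changed by 0.11 after resection. Both day 1 sham libraries were also above both day 1 resection libraries for Ccl6, Lgals3 and Ccl9, but not for Sftpc. The Sftpc gene marks lung epithelium and was high in the resection day 7 libraries; the part of such tissue in the results was not tested.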

How the results depend on the processing

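The sham comparison called 2360 genes, and between 1680 and 2361 with another pseudocount, filter, scaling or variance prior or with single zeros as missing. It called 1508 with the sham libraries alone, 1054 with the operated libraries alone, 843 with all 36 libraries and 552 with a 2-fold minimum, and 1142 to 1573 with each library left out. The cause was not tested. The difference from the unoperated change (93) was 44 with a pseudocount of 0.1, 152 with no filter, 51 with a filter at 5 FPKM, and 33 to 144 with each library left out. The difference between resection and sham (927) was 597 with the filter at 5 FPKM, 326 with the median of ratios, 275 with quantile normalization, 58 with the compared groups alone, 284 with all 36 libraries, and 253 to 2742 with each library left out. Of the 155 called genes chosen for naming, 102 kept the call with each library left out and 73 in every setting.

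Adding a replicate block called 2318, 80 and 819 genes in the 3 comparisons. The labels do not pair same-numbered libraries, and the sham pairs correlated at -0.06.

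Some genes that were not called turned direction. Under the median of ratios and quantile normalization Ccnb1 was 0.10 and 0.14, Cidea 0.036 and 0.056, and Krt10 0.011 and 0.052. With each library left out, the range was -0.44 to 0.40 for Ccnb1, -0.30 to 0.073 for Cidea, -0.17 to 0.45 for Cma1, -0.48 to 0.11 for Fabp4 and -0.14 to 0.21 for Kit. It was -0.23 to 0.035 for Krt10, -0.25 to 0.47 for Myh6, -0.17 to 0.20 for Pdzd9, -2.54 to 0.59 for Scgb3a2 and -1.03 to 1.46 for Uty. Depth is unknown, so the precision of low values cannot be stated, and with 2 libraries a group a missed threshold does not show that levels were equal.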
